A study of Mus musculus with 12 samples.

Results

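The genes described here are 41 genes of the connective tissue of muscle and tendon, without the collagens, out of 55573 gene rows in the count table. They were found by looking up the Ensembl identifiers of the rows in the mouse GRCm38 annotation (GENCODE vM21) and taking those that map to a list of 41 symbols. All 41 were found, each as 1 row. The list was drawn up with the difference between isolated fibers and whole muscle in these same libraries already known, so values of the members on that difference, counts past a threshold included, describe how the list was chosen and test nothing. By role, 6 members encode small leucine-rich proteoglycans, 7 encode parts of elastic fibers and microfibrils, 10 encode adhesive and matricellular glycoproteins, and 6 encode matrix enzymes with their inhibitors and enhancers. A further 3 are factors or membrane proteins of tendon cells. The other 9 are fibroblast markers, serum-type proteins and chemokines, so not every member encodes a matrix protein.

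RNA sequencing covered the extensor digitorum longus (EDL), a fast muscle of the hindlimb, of C57BL/6 mice. Each of 4 groups had 3 libraries: a single EDL myofiber, 5 pooled fibers, 20 pooled fibers, or the whole EDL. No treatment, transgene, age or sex is given in the labels, and the strain is the same in all 4 groups. The labels state lysis in kit buffer for single myofibers and Trizol extraction for whole muscle, with nothing separate for the pools, so for single fibers isolation and extraction cannot be told apart. All libraries were made from total RNA with SMART-Seq HT, a full-length cDNA kit for very small inputs.

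Muscle fibers are bound into a muscle by connective tissue, and its cells, mainly fibroblasts and fibro-adipogenic progenitors, secrete collagens and the proteins that space, cross-link and turn over the collagen fibrils. Tendon cells, or tenocytes, lay down a denser matrix at the ends of the muscle. A mature muscle fiber carries a basement membrane and can keep fragments of this tissue when it is teased out, and some matrix proteins are also made by endothelial cells, by satellite cells or by the fiber itself.

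Totals ran from 4702823 counted reads in 20-fiber pool 2 to 27787120 in single myofiber 2, and libraries of a group differed far beyond sampling noise, so none was a copy of another. Levels are CPM, the counts set to a common library total after TMM scaling. The TMM factors ran from 0.522 in 5-fiber pool 1 to 2.95 in 20-fiber pool 2. Values of a group are given in the order of libraries 1 to 3. All 10 fast fiber markers had reads in all 12 libraries, with summed levels of 182801 to 322563 CPM in single fibers, 60695 to 349141 CPM in 5-fiber pools, 16993 to 113918 CPM in 20-fiber pools and 86856 to 115004 CPM in whole muscle. Libraries also differed in reads on sensory receptor genes, taken here as a reference for background. Of 1504 olfactory, vomeronasal and taste receptor genes, 26.7%, 4.85% and 9.91% had a read in the single fibers, 58.1%, 68.8% and 4.59% in the 5-fiber pools, 78.7%, 97.3% and 95.4% in the 20-fiber pools, and 2.33%, 4.85% and 3.19% in whole muscle. A gene is said below to lie within the background density of a library or group where its reads per kilobase of exon are no higher than the 99th percentile over the receptor genes. Over all genes, single myofiber 2 and 5-fiber pool 3 were the fiber libraries most like the whole muscle mean (Spearman rho 0.849 and 0.895), and 20-fiber pool 2 was the least like it (0.562).

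Together the 41 genes took 355, 108 and 132 CPM in the single fibers, 934, 967 and 214 CPM in the 5-fiber pools, 244, 206 and 876 CPM in the 20-fiber pools, and 4365, 4380 and 4915 CPM in whole muscle. Every fiber library lay below every whole muscle library. As a mean of the group, after TMM scaling, the sum was 4.36% of whole muscle in single fibers. It was 15.5% in the 5-fiber pools and 9.70% in the 20-fiber pools. Single libraries weigh on these means: without single fiber 1 the first was 2.63%, and without 20-fiber pool 3 the last was 4.94%. In bulk RNA, fewer cells of a type and less RNA per cell cannot be told apart. After TMM scaling the fiber libraries did not order by the number of fibers. By these values 5-fiber pools 1 and 2 and 20-fiber pool 3 were high. The sums of 5-fiber pool 3 and 20-fiber pools 1 and 2 lay between the lowest and the highest single fiber. This split depended on the scaling. On plain library totals the 5-fiber pools had 488, 717 and 131 CPM and the 20-fiber pools 253, 606 and 1216 CPM. All pools of 20 then lay above the highest single fiber (single fiber 1, 224 CPM), while 5-fiber pool 3 lay below it. Even then 5-fiber pool 2 lay above 20-fiber pools 1 and 2. With TMM scaling the 10 endothelial markers divided the pools as the 41 genes did. They had 645, 496 and 81.7 CPM in the 5-fiber pools and 75.3, 64.2 and 543 CPM in the 20-fiber pools. In whole muscle they had 961, 891 and 1059 CPM. In the single fibers these markers summed to 6.92, 1.88 and 4.45 CPM, with Esam at 0 reads in all 3 and Pecam1 at 0 in single fibers 1 and 2. The part of endothelial cells in the matrix reads of the pools was not tested. The plot of summed levels shows both sets.

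**Figure D1:**
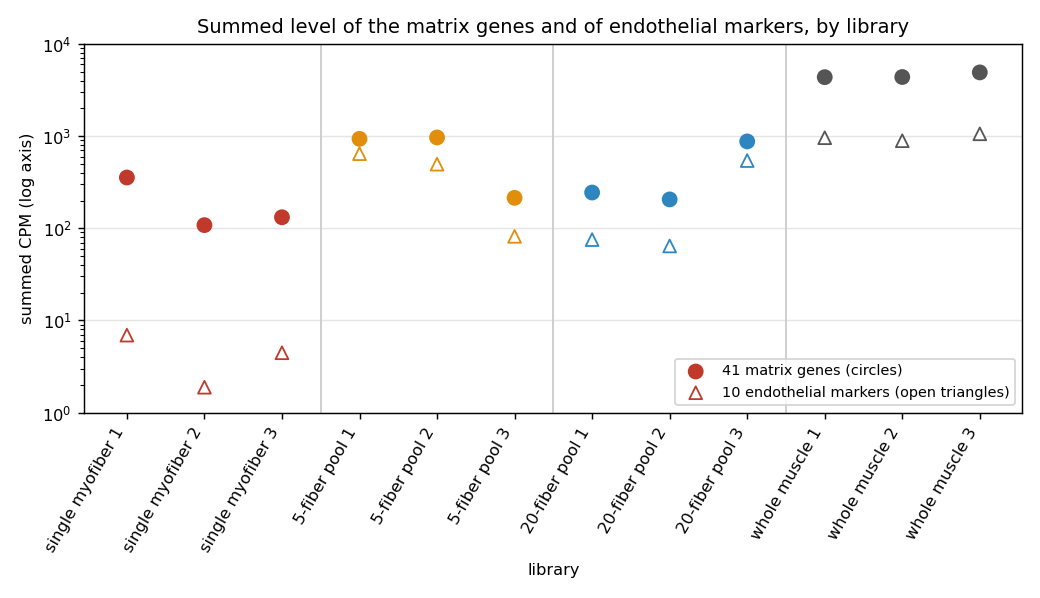
Summed level (CPM, log axis) of the 41 matrix genes (filled circles) and of 10 endothelial markers (open triangles) in each of the 12 libraries, by group. The matrix genes sum to between 108 and 967 CPM in the 9 fiber libraries and to between 4365 and 4915 CPM in whole muscle, and the endothelial markers stay under 7 CPM in the single fibers only.

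Promoters were at hand for 24 of the 41 genes, as RefSeq sequences on GRCm38.p6 that run from 250 bases before the transcript start to 50 bases after it. The promoters of 4 genes are shown because their levels followed contrasting patterns: Sparc had the highest level per length, Timp2 kept the largest share in fibers among the members above the background, Thbs4 was highest in a single fiber in which most members were low, and Tnmd had no read in the single fibers. Capitals mark CG dinucleotides, of which the windows of Sparc and Tnmd hold 4 each, that of Timp2 holds 25 and that of Thbs4 holds 24. The windows lie at chr11:55420031-55420330, minus strand (Sparc), chr11:118355362-118355661, minus strand (Timp2), chr13:92794769-92795068, minus strand (Thbs4) and chrX:133850758-133851057, plus strand (Tnmd).
Sparc: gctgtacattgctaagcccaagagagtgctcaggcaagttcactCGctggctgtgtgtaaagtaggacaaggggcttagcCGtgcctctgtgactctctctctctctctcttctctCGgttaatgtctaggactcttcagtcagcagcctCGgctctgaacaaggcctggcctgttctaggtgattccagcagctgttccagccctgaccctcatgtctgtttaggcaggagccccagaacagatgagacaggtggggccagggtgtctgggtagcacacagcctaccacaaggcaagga
Timp2: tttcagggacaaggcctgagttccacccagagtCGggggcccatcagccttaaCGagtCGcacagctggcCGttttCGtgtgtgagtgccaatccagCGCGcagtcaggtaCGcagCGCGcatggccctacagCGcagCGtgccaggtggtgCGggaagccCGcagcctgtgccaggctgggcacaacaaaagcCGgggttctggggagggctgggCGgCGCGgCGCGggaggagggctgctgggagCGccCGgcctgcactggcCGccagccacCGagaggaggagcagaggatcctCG
Thbs4: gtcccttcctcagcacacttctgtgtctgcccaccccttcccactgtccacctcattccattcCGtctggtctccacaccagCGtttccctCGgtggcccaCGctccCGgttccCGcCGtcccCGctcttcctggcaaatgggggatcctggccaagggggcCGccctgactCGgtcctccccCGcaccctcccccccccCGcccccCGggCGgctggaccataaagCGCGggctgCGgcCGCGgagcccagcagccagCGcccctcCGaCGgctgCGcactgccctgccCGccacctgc
Tnmd: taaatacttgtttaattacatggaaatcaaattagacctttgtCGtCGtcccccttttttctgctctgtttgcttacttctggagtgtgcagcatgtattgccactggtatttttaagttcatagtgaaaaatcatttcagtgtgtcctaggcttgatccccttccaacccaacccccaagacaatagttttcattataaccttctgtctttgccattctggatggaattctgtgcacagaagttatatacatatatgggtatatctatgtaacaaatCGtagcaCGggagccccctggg
The motif GGGCGG, a GC box, was found on either strand in the windows of Timp2 and Thbs4. Of the 24 promoters 45.8% held it, against 35.7% of 32851 mouse promoters of the same length. The TATA motif TATAAA was in 16.7% against 13.6%, and in none of the 4 windows shown. The E-box CANNTG was in 83.3% against 72.3%. Letters of these motifs may overlap one another. The median count of CG dinucleotides was 6 over the 24 promoters and 7 over all promoters. These matches describe the letters of the windows and show no binding.

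Whole muscle sets the scale on which the genes are read. Per length of exon, as CPM divided by exon length in kilobases (RPKM), the members spanned from 273 ± 30.5 RPKM for Sparc to 0.218 ± 0.0424 RPKM for Mkx (SD, n = 3). After Sparc came Gsn with 251 ± 32.0 RPKM and Dcn with 133 ± 6.60 RPKM. Sparc and Gsn overlapped over their 3 libraries, while Gsn lay above Dcn and Dcn above Lum, which had 50.9 ± 4.11 RPKM. Serpinf1, Dpt, Sparcl1, Mfap5, Serping1, Ogn, Timp2 and Cxcl14 followed between 43.9 and 30.8 RPKM. Within this stretch neighbours overlapped, except that Sparcl1 lay above Mfap5. At the low end Tnc stood at 0.571 ± 0.0748 RPKM, apart from Fbln1 above it and Mkx below it. In the fiber libraries, by the median of 9, Sparc (10.8 RPKM) and Gsn (9.70 RPKM) were again highest, but Timp2 (8.24 RPKM) was next, up from rank 11 in whole muscle, and Lum was at rank 16 in place of rank 4.

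All 9 fiber libraries lay below all 3 whole muscle libraries for 39 of the 41 members. Over the 50746 genes with a read the same held for 3.43%, and since the members were chosen on this contrast nothing is read from it or from the counts that follow. The exceptions were Mkx, with 5 of 9 fiber libraries below, and Tnc, with 8 of 9. In edgeR fits over all genes, 38 of 41 members lay past the threshold (adjusted p under 0.05) on the lower side in isolated fibers, taken as the mean of the 3 fiber groups, and 0 on the higher side, where 7.78% of 22110 tested genes were called lower and 7.46% higher. The members' median log2 fold change was -3.38 and that of all tested genes 0.40. Each fiber group was also set against the same whole muscle libraries, so these comparisons share their controls. For single fibers 37 members lay past it on the lower side (19.8% of 14028 genes) with a median log2 fold change of -5.09. For pools of 5 it was 18 (4.22% of 14764 genes) with a median of -2.62. For pools of 20 it was 37 (13.5% of 16969 genes) with a median of -2.39. The median for single fibers was -7.34 without single fiber 1, and that for pools of 20 was -3.40 without 20-fiber pool 3. The count for pools of 5 turned on single libraries: leaving out 5-fiber pool 1 gave 4 and leaving out 5-fiber pool 3 gave 38, while leaving out whole muscle 1, 2 or 3 gave 0, 1 or 1. Calls over all genes moved too, with 94 of 15437 lower without 5-fiber pool 1 and 3788 of 16378 without 5-fiber pool 3. Without whole muscle 1, 2 or 3 they were 5 of 16335, 27 of 16479 or 23 of 16121. In the heat map of all members, the pools of 5 and the pools of 20 each include lighter and darker columns.

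**Figure D2:**
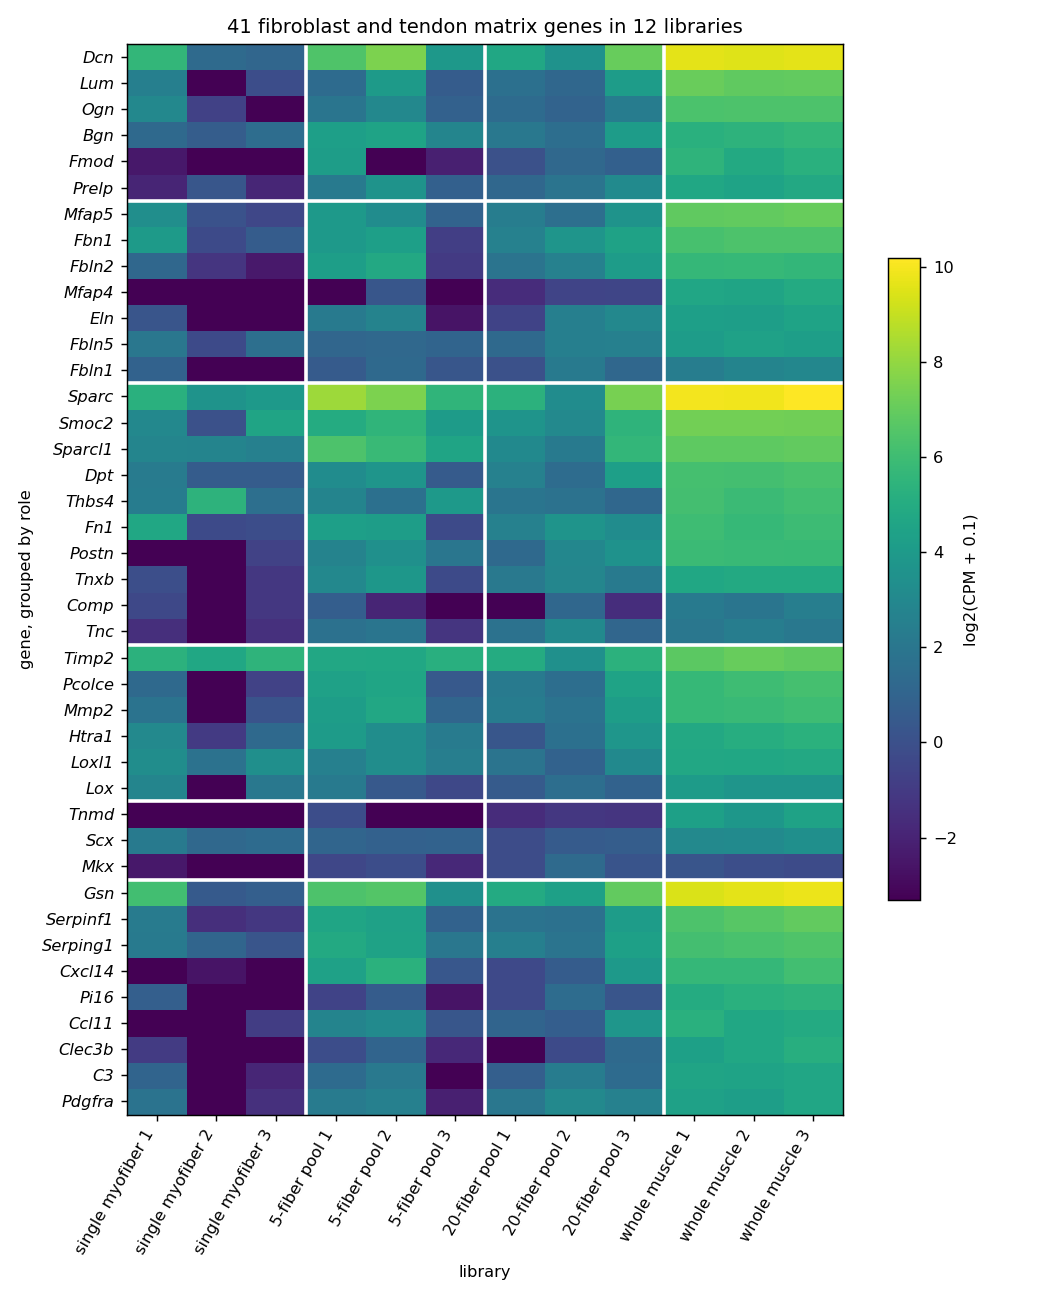
Level of each of the 41 genes (rows, grouped by role) in the 12 libraries (columns, by group) as log2(CPM + 0.1), on a colour scale where lighter is higher. The 3 whole muscle columns are lighter than the fiber columns in most rows, with Mkx and Tnc the rows where they overlap, and 5-fiber pool 3 and 20-fiber pools 1 and 2 are darker than the other pools.

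The small leucine-rich proteoglycans bind collagen fibrils and set their diameter and spacing. Decorin, Dcn (ENSMUSG00000019929, chromosome 10, 97479609 to 97518143, plus strand), was at 49.9, 2.401 and 2.14 CPM in the single fibers, 87.6, 187 and 14.4 CPM in the 5-fiber pools, 26.8, 11.8 and 133 CPM in the 20-fiber pools and 805, 734 and 795 CPM in whole muscle. The 9 fiber values differed widely among themselves, highest in 5-fiber pool 2 and lowest in single fibers 2 and 3, but all lay below whole muscle and above the background density. Its log2 fold change in isolated fibers was -4.06 (SE 0.794). Lumican, Lum (ENSMUSG00000036446, chromosome 10, 97565128 to 97572703, plus strand), was at 5.502, 0 and 0.801 CPM in the single fibers, 2.57, 16.3 and 1.45 CPM in the 5-fiber pools, 3.06, 2.16 and 17.5 CPM in the 20-fiber pools and 136, 116 and 122 CPM in whole muscle. The groups did not overlap with whole muscle, and single fiber 2 held no Lum read. Dcn and Lum are neighbours on chromosome 10, 46984 bases apart.

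Fibromodulin, Fmod (ENSMUSG00000041559, chromosome 1, 134037254 to 134048277, plus strand), which is rich in tendon, was at 0.0834, 0 and 0 CPM in the single fibers, 18.3, 0 and 0.132 CPM in the 5-fiber pools, 0.907, 2.31 and 1.69 CPM in the 20-fiber pools and 43.6, 29.9 and 38.4 CPM in whole muscle. Most of its fiber reads came from 1 library: 5-fiber pool 1 held 200 reads, more than the 8 other fiber libraries together, while 5-fiber pools 2 and 3 held 0 and 2 reads. The single fibers together held 1 read against 2538 in whole muscle, a ratio of 1389-fold lower with a 95% counting interval of 249 to 54895. Fmod lay within the background density in the single fibers and in the 20-fiber pools, and its log2 fold change of -5.71 (SE 0.879) was the largest drop of the class. Biglycan, Bgn, was at 2.33, 1.49 and 2.76 CPM in the single fibers, 19.4, 22.7 and 6.91 CPM in the 5-fiber pools, 4.08, 2.89 and 17.6 CPM in the 20-fiber pools and 38.2, 42.9 and 49.4 CPM in whole muscle. It had the smallest log2 fold change of the class, -2.70 (SE 0.447), and in 5-fiber pools 1 and 2 it reached 44.7% and 52.2% of whole muscle. Osteoglycin, Ogn, ran from 0 to 7.84 CPM in the fiber libraries, against 83.7 to 86.2 CPM in whole muscle, and Prelp from 0.167 to 11.99 CPM in the fiber libraries, against 22.4 to 28.01 CPM in whole muscle. Ogn was highest in single fiber 1 and in 5-fiber pool 2, at 7.84 CPM in both. Fmod and Prelp lie 115839 bases apart on chromosome 1.

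Elastic fibers consist of an elastin core on a scaffold of fibrillin microfibrils, which fibulins and microfibril-associated proteins join. Mfap5 (ENSMUSG00000030116, chromosome 6, 122505845 to 122529290, plus strand), a microfibril glycoprotein and the class member with the highest whole muscle level, was at 10.00, 0.973 and 0.623 CPM in the single fibers, 16.1, 9.44 and 1.84 CPM in the 5-fiber pools, 5.104, 2.96 and 12.2 CPM in the 20-fiber pools and 119, 123 and 132 CPM in whole muscle. No fiber library reached the lowest whole muscle library, and single fiber 1 stood above the other single fibers. Its log2 fold change was -4.32 (SE 0.617). Fibrillin 1, Fbn1, the main microfibril protein, was at 16.6, 0.714 and 1.42 CPM in the single fibers, 15.3, 19.3 and 0.461 CPM in the 5-fiber pools, 6.12, 13.3 and 21.9 CPM in the 20-fiber pools and 76.5, 86.7 and 84.2 CPM in whole muscle. Single fiber 1 lay in the range of the high pools, while single fibers 2 and 3 and 5-fiber pool 3 were low. An opposite-strand gene, Gm9913, covers 20.1% of the exon bases of Fbn1, so part of its reads cannot be assigned if strand was not used.

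Mfap4 (ENSMUSG00000042436, chromosome 11, 61485431 to 61488900, plus strand), a microfibril-associated glycoprotein, was at the lowest levels of the class in the fibers, at 0, 0 and 0 CPM in the single fibers, 0, 1.12 and 0 CPM in the 5-fiber pools, 0.227, 0.577 and 0.6102 CPM in the 20-fiber pools and 25.00, 23.5 and 31.1 CPM in whole muscle. Only 5-fiber pool 2 and the 20-fiber pools held any reads, and no fiber library exceeded the background density. With 0 reads in the single fibers against 1904 in whole muscle, Mfap4 was at least 347-fold lower in single fibers, taking 3 counts over the group as the floor. Its fitted log2 fold change in isolated fibers, -7.97 (SE 0.741), was the largest of all 41 members. Elastin, Eln, which forms the core, ran from 0 to 7.79 CPM in the fiber libraries, against 18.8 to 22.7 CPM in whole muscle, and was at 0 reads in single fibers 2 and 3. Fibulin 2, Fbln2, ran from 0.08904 to 28.8 CPM in the fiber libraries, against 49.2 to 52.4 CPM in whole muscle, and fibulin 5, Fbln5, from 0.714 to 5.73 CPM in the fiber libraries, against 17.4 to 21.4 CPM in whole muscle. Fibulin 1, Fbln1, was at 1.83, 0 and 0 CPM in the single fibers, 1.38, 2.399 and 1.12 CPM in the 5-fiber pools, 0.907, 4.62 and 2.16 CPM in the 20-fiber pools and 5.26, 6.64 and 7.59 CPM in whole muscle. It was the class member closest to whole muscle, with a log2 fold change of -2.24 (SE 0.774), and in the 20-fiber pools it lay within the background density.

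The adhesive and matricellular glycoproteins link cells to the matrix or change how cells respond to it. Sparc (ENSMUSG00000018593, chromosome 11, 55394500 to 55423183, minus strand), a collagen-binding glycoprotein also made by endothelial cells, was at 38.3, 12.1 and 15.4 CPM in the single fibers, 295, 183 and 46.3 CPM in the 5-fiber pools, 40.9, 9.38 and 169 CPM in the 20-fiber pools and 990.2, 950.0 and 1167 CPM in whole muscle. The high pools were 5-fiber pools 1 and 2 and 20-fiber pool 3, the same that were high in endothelial markers, and the highest, 5-fiber pool 1, stood at 28.5% of whole muscle. In isolated fibers the log2 fold change of Sparc was -3.98 (SE 0.638). Its relative Sparcl1, or hevin, was at 6.92, 6.81 and 5.79 CPM in the single fibers, 85.6, 57.4 and 23.4 CPM in the 5-fiber pools, 8.51, 4.55 and 48.8 CPM in the 20-fiber pools and 116, 116 and 124 CPM in whole muscle. In 5-fiber pool 1 that was 72.1% of whole muscle, and the 3 single fibers lay close together between 5.79 and 6.92 CPM.

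Smoc2, a secreted calcium-binding relative of Sparc, was at 7.84, 0.909 and 23.2 CPM in the single fibers, 31.2, 45.7 and 17.05 CPM in the 5-fiber pools, 12.7, 8.08 and 44.8 CPM in the 20-fiber pools and 161, 159.6 and 154 CPM in whole muscle. Single fiber 3 reached 14.7% of whole muscle and single fiber 2 only 0.574%. Dermatopontin, Dpt, which binds decorin and collagen, ran from 1.38 to 19.4 CPM in the fiber libraries, against 71.3 to 79.7 CPM in whole muscle. Fibronectin, Fn1, the main adhesive protein of loose connective tissue, was at 26.8, 0.714 and 0.801 CPM in the single fibers, 19.5, 18.2 and 0.724 CPM in the 5-fiber pools, 6.12, 12.7 and 9.29 CPM in the 20-fiber pools and 63.2, 53.6 and 60.7 CPM in whole muscle. Single fiber 1 was the highest fiber library, at 45.2% of whole muscle, while single fibers 2 and 3 and 5-fiber pool 3 were all under 1 CPM.

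Thrombospondin 4, Thbs4 (ENSMUSG00000021702, chromosome 13, 92751590 to 92794818, minus strand), a glycoprotein of tendon and of the muscle attachment, followed another order. It was at 5.09, 41.9 and 2.94 CPM in the single fibers, 6.697, 3.04 and 15.8 CPM in the 5-fiber pools, 3.74, 3.32 and 2.21 CPM in the 20-fiber pools and 69.7, 60.2 and 67.7 CPM in whole muscle. Single fiber 2 reached 63.6% of whole muscle and 5-fiber pool 3 reached 23.98%, while the 7 other fiber libraries lay between 3.35% and 10.2%. These are also the fiber libraries most like whole muscle over all genes. They were among the 4 lowest fiber libraries for Dcn, Gsn and Fn1, and single fiber 2 was the lowest for Smoc2, so high Thbs4 stood beside low levels of these members.

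Periostin, Postn (ENSMUSG00000027750, chromosome 3, 54361109 to 54391037, plus strand), a matricellular protein of active fibroblasts, was at 0, 0 and 0.534 CPM in the single fibers, 6.51, 10.9 and 3.88 CPM in the 5-fiber pools, 2.38, 7.58 and 11.8 CPM in the 20-fiber pools and 58.8, 56.3 and 55.1 CPM in whole muscle. Single fibers 1 and 2 held no read, and every pool lay above every single fiber. Its log2 fold change of -4.77 (SE 0.539) was the largest drop of the class. Tenascin X, Tnxb, which spaces collagen fibrils, ran from 0 to 13.9 CPM in the fiber libraries, against 26.6 to 29.4 CPM in whole muscle. Tenascin C, Tnc (ENSMUSG00000028364, chromosome 4, 63959785 to 64047015, minus strand), found at the muscle-tendon junction, was at 0.2501, 0 and 0.267 CPM in the single fibers, 3.21, 3.68 and 0.329 CPM in the 5-fiber pools, 3.29, 8.37 and 2.11 CPM in the 20-fiber pools and 4.02, 5.102 and 4.19 CPM in whole muscle. Only 20-fiber pool 2, the library with the most receptor-gene reads, exceeded whole muscle, and Tnc lay within the background density in the single fibers and in the 20-fiber pools. Its log2 fold change, -1.83 (SE 0.669), was the smallest of the class. Comp, a thrombospondin relative of cartilage and tendon, was low throughout, from 0 to 2.16 CPM in the fiber libraries, against 3.67 to 5.37 CPM in whole muscle.

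Matrix enzymes were the role group that stood highest in the fibers relative to whole muscle, with a mean summed level of 17.2% of whole muscle in single fibers, 25.4% in 5-fiber pools and 18.6% in 20-fiber pools. The 5 other groups ranged from 2.35% to 10.8% in single fibers. Most of the matrix enzyme level in single fibers came from Timp2 alone, with a mean of 37.4 of 55.0 CPM. Timp2 (ENSMUSG00000017466, chromosome 11, 118301069 to 118355740, minus strand), a secreted inhibitor of matrix metalloproteinases that also takes part in the activation of pro-MMP2, was at 41.3, 26.5 and 44.4 CPM in the single fibers, 27.2, 26.4 and 36.8 CPM in the 5-fiber pools, 32.1, 10.9 and 40.4 CPM in the 20-fiber pools and 110.4, 133 and 119 CPM in whole muscle. The 3 fiber groups overlapped, all fiber libraries lay below whole muscle, and the share of the whole muscle mean was 21.8% to 36.8% in 8 of the 9 libraries and 9.02% in 20-fiber pool 2. Timp2 lay above the background density in all 9. Its log2 fold change of -1.93 (SE 0.387) was the smallest of the class.

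Mmp2, or gelatinase A, the enzyme that Timp2 binds, was at 3.42, 0 and 0.979 CPM in the single fibers, 18.2, 26.9 and 2.04 CPM in the 5-fiber pools, 4.99, 3.39 and 18.6 CPM in the 20-fiber pools and 53.5, 57.1 and 64.5 CPM in whole muscle. Unlike Timp2 it stayed at or under 3.42 CPM in the single fibers, with no read in single fiber 2. Pcolce, which speeds the trimming of procollagen by BMP1, was at 2.33, 0 and 0.534 CPM in the single fibers, 21.1, 24.1 and 1.25 CPM in the 5-fiber pools, 4.42, 2.89 and 22.5 CPM in the 20-fiber pools and 52.7, 63.3 and 74.7 CPM in whole muscle. It had the largest log2 fold change of the class, -3.59 (SE 0.707). Loxl1, an enzyme that cross-links elastin, was at 9.75, 3.31 and 10.6 CPM in the single fibers, 5.78, 9.595 and 5.33 CPM in the 5-fiber pools, 3.63, 1.804 and 8.45 CPM in the 20-fiber pools and 27.1, 26.8 and 28.6 CPM in whole muscle. Single fibers 1 and 3 were as high as the highest pool, at 35.5% and 38.5% of whole muscle. Lox, which cross-links collagen and elastin, ran from 0 to 7.003 CPM in the fiber libraries, against 13.2 to 16.8 CPM in whole muscle, with 48.5% of whole muscle in single fiber 1 and no read in single fiber 2. Htra1, a secreted serine protease, ran from 0.389 to 17.1 CPM in the fiber libraries, against 28.6 to 40.1 CPM in whole muscle, with the highest fiber value in 5-fiber pool 1.

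Of the tenocyte genes, Scx and Mkx are low in whole EDL, at ranks 32 and 41 of the 41 members per length, while Tnmd is at rank 19. Tnmd (ENSMUSG00000031250, chromosome X, 133850980 to 133865577, plus strand), the tendon membrane glycoprotein tenomodulin, was at 0, 0 and 0 CPM in the single fibers, 0.826, 0 and 0 CPM in the 5-fiber pools, 0.227, 0.361 and 0.329 CPM in the 20-fiber pools and 20.7, 14.1 and 22.2 CPM in whole muscle. Of 9 fiber libraries 5 held no read and none of the fiber groups stood above the background density. With 0 reads in the single fibers against 1322 in whole muscle, Tnmd was at least 241-fold lower (floor of 3 counts over the group), and its log2 fold change in isolated fibers was -7.69 (SE 0.722). Scx (ENSMUSG00000034161, chromosome 15, 76457452 to 76459458, plus strand), the transcription factor that specifies tendon progenitors, was at 4.502, 2.27 and 2.58 CPM in the single fibers, 2.02, 1.76 and 1.78 CPM in the 5-fiber pools, 0.794, 1.37 and 1.45 CPM in the 20-fiber pools and 8.204, 8.81 and 10.5 CPM in whole muscle. After TMM scaling all single fibers lay above all pools of 5 and these above all pools of 20, and all below whole muscle. This order among the fiber groups rests on few reads and on the scaling. Scx had 54 reads among 19001774 in single fiber 1 and 19 among 4702823 in 20-fiber pool 2. On plain library totals that pool lay above every single fiber. In the 20-fiber pools Scx lay within the background density. Mkx, a homeobox factor of tendon, was at 0.0834, 0 and 0 CPM in the single fibers, 0.642, 0.7996 and 0.197 CPM in the 5-fiber pools, 0.794, 2.45 and 1.03 CPM in the 20-fiber pools and 1.08, 0.856 and 0.743 CPM in whole muscle. The fiber and whole muscle libraries overlapped, and the single fibers held 1 read in all. In all 3 fiber groups Mkx lay within the background density.

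The 9 remaining members mark fibroblasts or are secreted into serum and tissue fluid. Gelsolin, Gsn (ENSMUSG00000026879, chromosome 2, 35256380 to 35307892, plus strand), an actin-severing protein with a secreted form that fibroblasts and other cells make, was at 69.2, 1.298 and 1.603 CPM in the single fibers, 84.95, 96.4 and 10.7 CPM in the 5-fiber pools, 30.6, 20.6 and 124 CPM in the 20-fiber pools and 689, 796 and 891 CPM in whole muscle. Single fiber 1 stood with the higher pools, while single fibers 2 and 3 were under 2 CPM, and all 9 fiber libraries lay below whole muscle. The log2 fold change of Gsn was -4.14 (SE 0.824). Serpinf1, the secreted serpin PEDF, and Serping1, the inhibitor of complement C1, were also highest in 5-fiber pools 1 and 2 and 20-fiber pool 3. Serpinf1 ran from 0.2596 to 24.1 CPM in the fiber libraries, against 86.3 to 123 CPM in whole muscle. Serping1 ran from 1.07 to 29.9 CPM in the fiber libraries, against 70.3 to 89.9 CPM in whole muscle.

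Pdgfra (ENSMUSG00000029231, chromosome 5, 75152292 to 75198215, plus strand), the receptor that marks fibro-adipogenic progenitors, was at 3.502, 0 and 0.267 CPM in the single fibers, 4.86, 5.76 and 0.132 CPM in the 5-fiber pools, 3.97, 8.15 and 6.05 CPM in the 20-fiber pools and 20.9, 18.7 and 25.9 CPM in whole muscle. It was at 0 reads in single fiber 2, its log2 fold change of -2.86 (SE 0.722) was the smallest of this group, and it lay within the background density in the 20-fiber pools. Pi16, which marks fibroblasts around vessels, was at 1.58, 0 and 0 CPM in the single fibers, 0.5504, 1.44 and 0.0658 CPM in the 5-fiber pools, 0.681, 2.67 and 1.08 CPM in the 20-fiber pools and 31.97, 37.6 and 42.1 CPM in whole muscle. Clec3b, or tetranectin, ran from 0 to 2.39 CPM in the fiber libraries, against 20.6 to 35.1 CPM in whole muscle, with the largest log2 fold change of the group at -5.70 (SE 0.696). Neither exceeded 2.67 CPM in a fiber library.

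The chemokines were absent or nearly absent from single fibers and higher in the pools. In 20-fiber pools 1 and 2, however, the 6 and 20 reads of Cxcl14 lay within the background density. Cxcl14 (ENSMUSG00000021508, chromosome 13, 56288643 to 56296551, minus strand) was at 0, 0.0649 and 0 CPM in the single fibers, 21.01, 39.8 and 1.18 CPM in the 5-fiber pools, 0.681, 1.44 and 15.8 CPM in the 20-fiber pools and 50.7, 50.5 and 67.5 CPM in whole muscle. In 5-fiber pool 2 this was 70.8% of whole muscle, whereas the single fibers held 1 read in all, 2228-fold lower than whole muscle with a 95% counting interval of 400 to 88018. Such floors and intervals cover counting error only. Ccl11, or eotaxin, a chemoattractant of eosinophils, was at 0, 0 and 0.445 CPM in the single fibers, 6.79, 8.795 and 1.12 CPM in the 5-fiber pools, 1.93, 1.52 and 13.8 CPM in the 20-fiber pools and 37.4, 26.4 and 30.3 CPM in whole muscle. Complement C3 ran from 0 to 5.05 CPM in the fiber libraries, against 22.5 to 25.5 CPM in whole muscle, with 0 reads in single fiber 2 and in 5-fiber pool 3.

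Set against the whole muscle mean, the members thus kept very different shares in the fibers. By the median over the 9 fiber libraries, Mkx (71.8%) and Tnc (47.6%) were highest, both of them within the background density of the 20-fiber pools. Of the members above the background density in all 9 fiber libraries, Timp2 was highest (26.6%). The others of that kind, Dcn, Sparc, Sparcl1, Dpt, Serpinf1, Serping1 and Gsn, had medians of 3.29% to 7.17%. The lowest medians were 0% for Mfap4 and Tnmd, 0.353% for Fmod and 1.52% for Clec3b. Within a library the median member stood at 5.83%, 0.164% and 1.22% in the single fibers, at 22.0%, 23.5% and 2.11% in the 5-fiber pools, and at 6.89%, 6.56% and 25.8% in the 20-fiber pools. The number of members with no read was 5, 19 and 10 in the single fibers, 1, 2 and 4 in the 5-fiber pools, and 2, 0 and 0 in the 20-fiber pools. Single fiber 2 lacked 19 members although it was the most deeply read library.

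**Figure D3:**
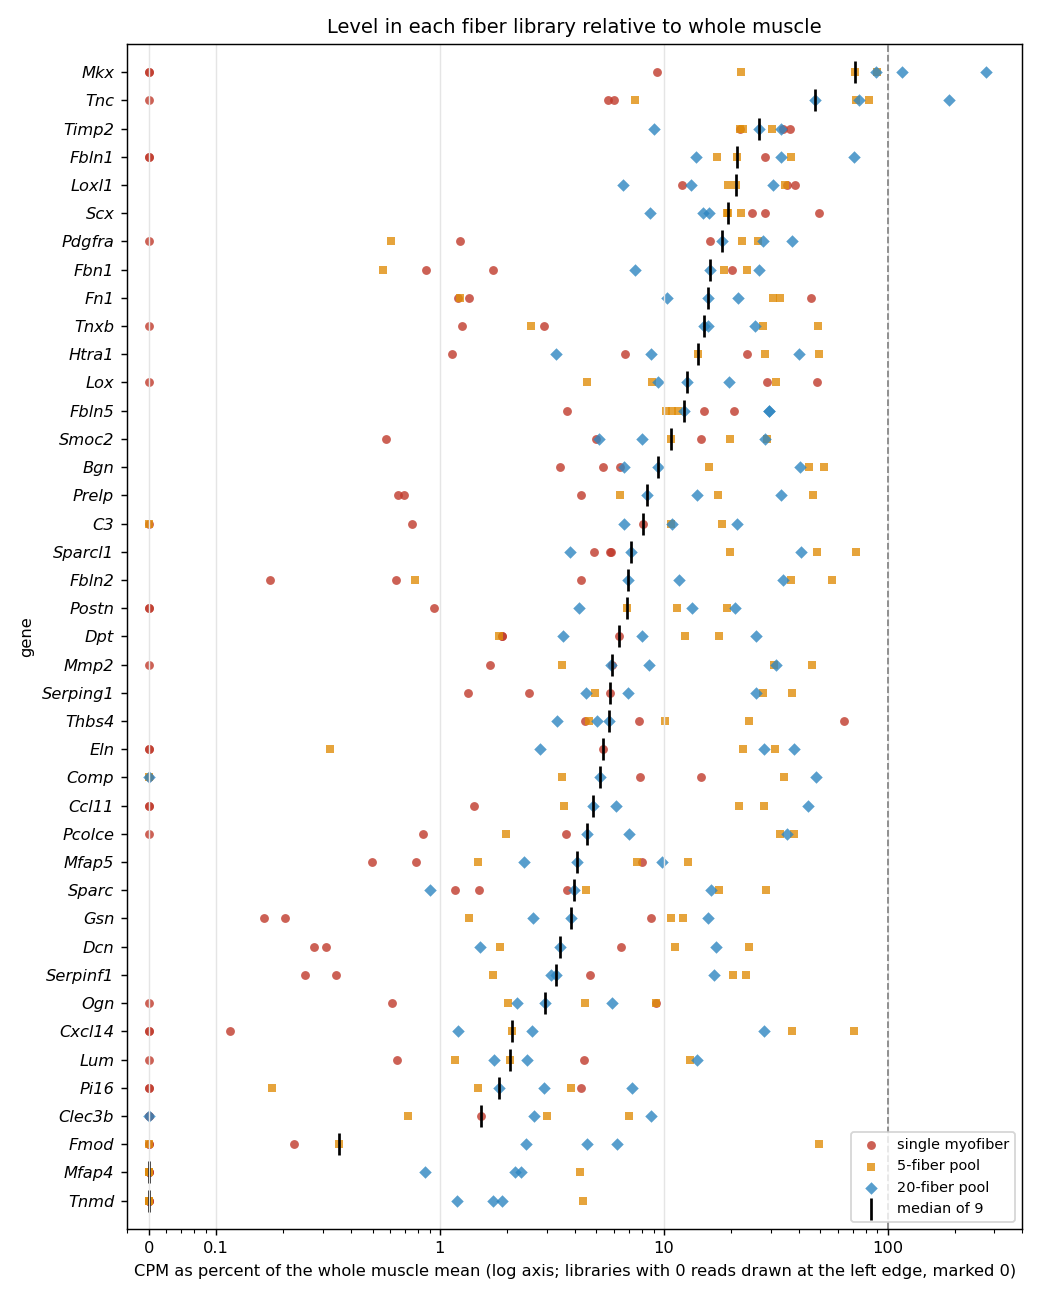
CPM of each of the 41 genes in each of the 9 fiber libraries as a percent of the whole muscle mean (log axis, with 0 reads drawn at the left edge), coloured by group, with a black bar at the median of 9. Genes run from the highest median, Mkx at 71.8%, to Mfap4 and Tnmd at 0%, and the dashed line marks the whole muscle mean.

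The number of members that stood clear of the background differed between libraries. Within the background density lay 12, 21 and 18 members in the single fibers, 5, 11 and 10 in the 5-fiber pools, 24, 32 and 13 in the 20-fiber pools, and 0 in each whole muscle library. If the members carried the mean read density of the receptor genes, this would amount to 1.10%, 0.548% and 0.672% of the member reads in the single fibers, 1.36%, 2.83% and 0.157% in the 5-fiber pools, 14.2%, 51.3% and 5.15% in the 20-fiber pools, and at most 0.0133% in whole muscle. In 20-fiber pool 2 that density would account for most of the reads on the members. By group, 10 members lay within the background in single fibers, 5 in the 5-fiber and 13 in the 20-fiber pools. Whether low member reads in the 20-fiber pools come from transcripts of these genes was not tested.

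**Figure D4:**
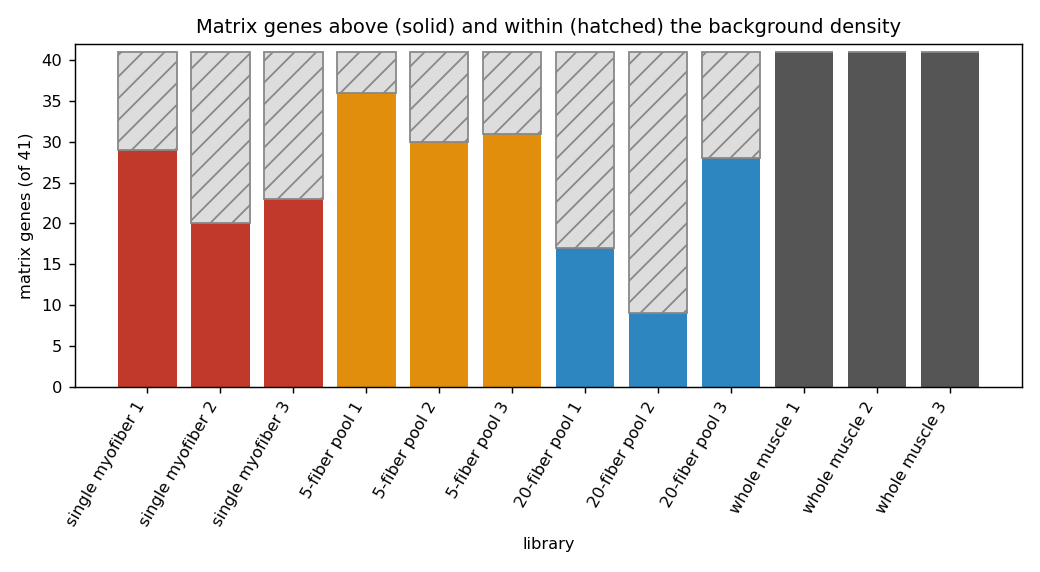
Number of the 41 genes above (solid) and within (hatched) the background density in each of the 12 libraries, where background is the 99th percentile of reads per kilobase on receptor-family genes. All 41 are above it in whole muscle, and 32 are within it in 20-fiber pool 2.

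The comparisons among the fiber groups do not use whole muscle and set samples of 1, 5 and 20 fibers against each other. In single fibers against pools of 20, Bgn, Dpt, Sparc, Sparcl1 and Serping1 were lower in single fibers among the 11 members that had enough reads for the low-count filter in all 3 single fibers, and the 6 others of these 11 were not called. The filter asks for the equivalent of 10 reads at the median library total in 3 libraries, and 35 of the 41 members passed it. Of these, 7 (Fmod, Prelp, Tnc, Tnxb, Postn, Mkx and Ccl11) reached that level in none of the single fibers and passed through the pools of 20 alone, so they had to be lower in single fibers, and all 7 were called. With them 15 members were lower in single fibers and 0 were higher (edgeR quasi-likelihood test, adjusted p under 0.05), where 27.5% of 16978 tested genes were called lower and 8.52% higher. The median log2 fold change of -2.23 over the members tested, beside -0.74 over all genes, carries the same choice and supports nothing, and it was -4.30 without single fiber 1 and -1.41 without 20-fiber pool 3.

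The edgeR log2 fold changes were -2.35 (SE 0.749, adjusted p = 0.0255) for Serping1 and -2.24 (SE 0.767, adjusted p = 0.0345) for Bgn. Sparc, at 38.3, 12.1 and 15.4 CPM in single fibers against 40.9, 9.38 and 169 CPM in pools of 20, overlapped between the groups, with an edgeR estimate of -2.03 (SE 0.741, adjusted p = 0.0446). In each of Bgn, Dpt, Sparc, Sparcl1 and Serping1 the highest of the 6 values was in 20-fiber pool 3, and none of the 5 calls held when that pool was left out. Of the members with enough reads in 1 or 2 single fibers, Fbln2, Pcolce and Mmp2 were called. Their edgeR log2 fold changes were -3.86 (SE 1.001, adjusted p = 0.00985) for Fbln2, -3.73 (SE 1.13, adjusted p = 0.02002) for Pcolce and -2.99 (SE 1.09, adjusted p = 0.0448) for Mmp2. Fbln2 and Pcolce reached the filter level in 1 single fiber and Mmp2 in 2. None of these calls held without 20-fiber pool 2, and only that of Fbln2 held without 20-fiber pool 3.

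Among the members that passed through the pools alone, Postn was at 0, 0 and 0.534 CPM in single fibers against 2.38, 7.58 and 11.8 CPM in pools of 20, with an edgeR estimate of -5.84 (SE 1.300, adjusted p = 0.00727) on the log2 scale. Ccl11 was at 0, 0 and 0.445 CPM in single fibers against 1.93, 1.52 and 13.8 CPM in pools of 20, with an edgeR estimate of -5.52 (SE 1.46, adjusted p = 0.0108). Ccl11 lay above the background density in all 3 pools of 20, and Postn in 20-fiber pool 3 alone. Prelp had an edgeR log2 fold change of -3.76 (SE 1.09, adjusted p = 0.0164). For Fmod, Mkx, Tnc and Tnxb the reads of the pools of 20 together did not exceed the background density. Their edgeR log2 fold changes were -6.13 (SE 1.502, adjusted p = 0.00776) for Fmod, -6.00 (SE 1.53, adjusted p = 0.00906) for Mkx, -5.42 (SE 1.29, adjusted p = 0.00732) for Tnc and -4.37 (SE 1.17, adjusted p = 0.0113) for Tnxb. Receptor genes with a read, 4.85% to 26.7% of them in single fibers and 78.7% to 97.3% in pools of 20, move with these calls, and their part was not tested.

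Dcn and Gsn, with Sparc the members at the highest levels, did not pass the test. The edgeR estimate was -2.00 (SE 1.003, adjusted p = 0.129) for Dcn and -1.68 (SE 1.08, adjusted p = 0.233) for Gsn. For both, single fiber 1 lay above 20-fiber pools 1 and 2. Members on the other side of 0 were Timp2 at 0.09 (SE 0.468), Lox at 0.28 (SE 1.25), Loxl1 at 0.43 (SE 0.695), Scx at 0.79 (SE 0.988) and Thbs4 at 1.83 (SE 0.8198), none called. Thbs4 was called higher without single fiber 1, without single fiber 3, without 20-fiber pool 1, with no low-count filter and in a fit on all 12 libraries, and was at 0.37 without single fiber 2. By TMM-scaled CPM all single fibers lay below all pools of 20 in 14 members, as did 35.3% of the genes with a read. In 1 member, Scx, all lay above, as did 7.63% of these genes. The endothelial markers moved with the calls, at 1.88 to 6.92 CPM in single fibers and 64.2 to 543 CPM in pools of 20, and 9 of the 10 were called lower. Their part in the change of the members was not tested.

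The count of 15 depended on single libraries. Leaving out single fiber 1 gave 32 calls (31 lower and Thbs4 higher), leaving out 20-fiber pool 1 gave 26 (25 lower and Thbs4 higher), leaving out its pool 2 gave 6 and leaving out its pool 3 gave 8. Over all genes, in the same order, 8914 of 22298, 9174 of 23389, 3012 of 17933 and 5339 of 18363 were called lower. Called higher were 1453, 1540, 919 and 1215. Ccl11, Fmod, Mkx and Postn, all of which passed the filter through the pools alone, were called whichever of the 6 libraries was left out. With the replicate number as a block the count was 0, beside 7 of 16978 genes, although the numbers did not pair the libraries. Nothing in the labels says that a group's libraries stem from separate animals, and the p-values then measure only the spread between these samples, which may be technical.

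**Figure D5:**
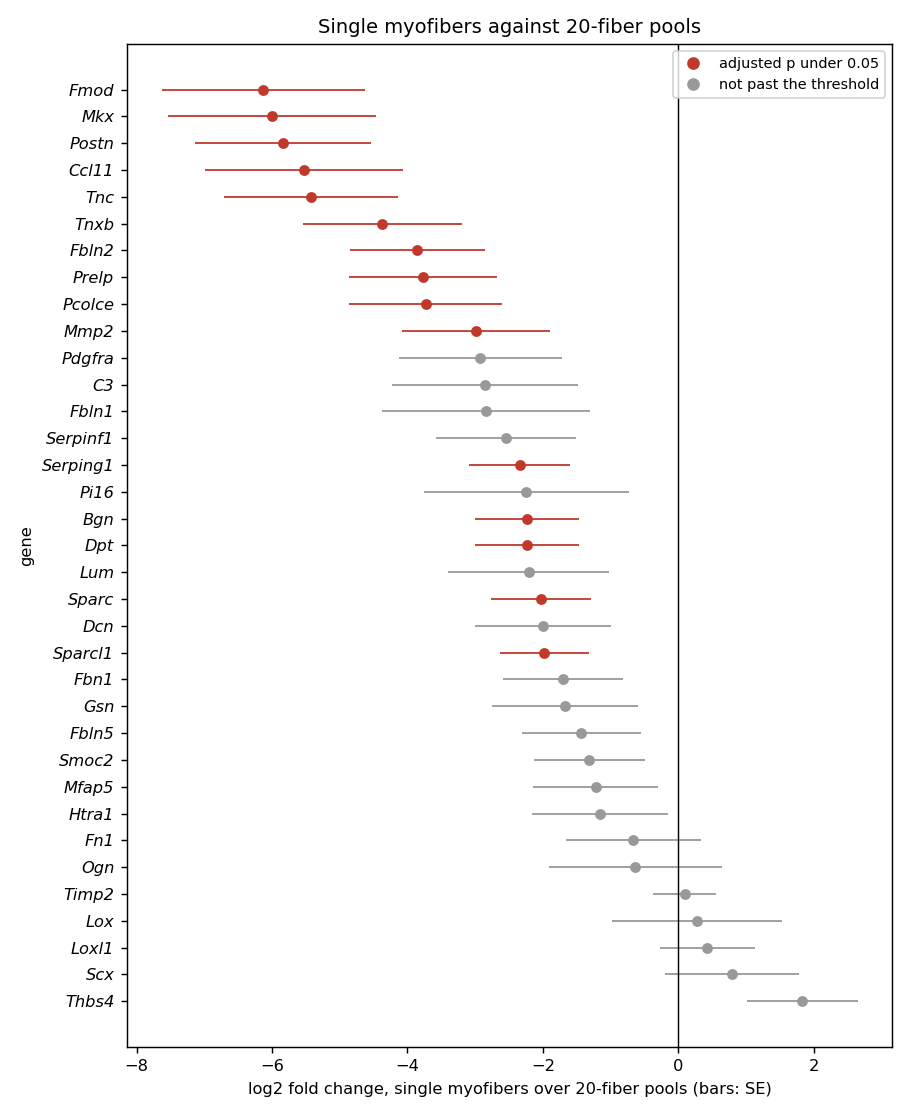
Fitted log2 fold change of single fibers over pools of 20 fibers for the 35 members tested, with bars of 1 SE, n = 3 libraries a group. The 15 genes called at an adjusted p under 0.05 (red) all lie left of 0, from -6.13 for Fmod to -1.98 for Sparcl1, and Thbs4 lies farthest right at 1.83 without a call.

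Single fibers against pools of 5 gave no call among the 33 members tested by edgeR, and 2 calls among 12700 genes (0.0157%, both lower in single fibers). At an unadjusted p under 0.05 there were 13 members, beside 1132 of the 12700 genes. DESeq2 called 11 members lower, beside 395 of 12700 genes lower and 28 higher. The members' median log2 fold change was -1.86 beside 0.08 over all genes, and -3.94 without single fiber 1. As above, only members that passed the filter enter these counts and medians, which support nothing. Sparc, at 38.3, 12.1 and 15.4 CPM in single fibers against 295, 183 and 46.3 CPM in pools of 5, did not overlap between the groups and had an edgeR estimate of -3.09 (SE 0.799, adjusted p = 0.285). For Dcn it was -2.60 (SE 1.34, adjusted p = 0.6301) and for Gsn -1.58 (SE 1.43, adjusted p = 0.733). By TMM-scaled CPM all single fibers lay below all pools of 5 in 9 members (Bgn, Prelp, Tnc, Postn, Sparc, Sparcl1, Mkx, Cxcl14 and Ccl11). The same held for 6.45% of the genes with a read. In 1 member, Scx, all lay above, as did 1.44% of these genes. Without single fiber 2 and 5-fiber pool 3, the fiber libraries most like whole muscle over all genes, 17 members were called, an alternative chosen after seeing the data. There 1927 of 13832 genes were called lower and 1386 higher.

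Pools of 5 against pools of 20 gave 0 calls among 37 members tested and 0 among 17113 genes (0%) by edgeR, with 0 members at an unadjusted p under 0.05 and 0 by DESeq2. The members' median log2 fold change was 0.26. Sparc was at 1.22 (SE 0.9896, adjusted p = 0.602), Dcn at 0.72 (SE 1.001, adjusted p = 0.747) and Gsn at 0.06 (SE 0.8802, adjusted p = 0.978) by edgeR. Both groups hold low and high libraries. By TMM-scaled CPM the groups overlapped in all members except Fbln5, lower in every pool of 5, and Scx, higher in every pool of 5. Over the genes with a read these shares were 14.4% for lower and 2.96% for higher.

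Related genes that are not members give the setting. Of 38 other matrix genes of fibroblasts and tendon, 25 were called lower and 0 higher in isolated fibers, beside 7.78% of all genes tested called lower and 7.46% higher, with a median log2 fold change of -2.54. Igfbp7, an insulin-like growth factor binding protein of vessels, was at 0, 0 and 0 CPM in the single fibers, 54.95, 20.9 and 4.21 CPM in the 5-fiber pools, 3.18, 1.08 and 28.1 CPM in the 20-fiber pools and 150.3, 170.2 and 199 CPM in whole muscle. No single fiber held a read of it, and the pools that were high were those high in Sparc. Nid1, a basement membrane linker, had a log2 fold change of -3.60 (SE 0.649), Igfbp6 of -3.76 (SE 0.713) and the tendon and cartilage protein Chad of -6.94 (SE 0.957). Of 19 other fibroblast markers tested 13 were called lower and 0 higher, among them the collagens Col3a1 at -4.59 (SE 0.736), Col1a2 at -4.27 (SE 0.7998) and Col1a1 at -4.83 (SE 0.873) and the lipocalin Apod at -4.86 (SE 0.501).

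Of 25 other matrix enzymes and inhibitors 12 were called lower and 2 higher. Serpinh1, the collagen chaperone HSP47, had a log2 fold change of -3.70 (SE 0.523), and the protease Ctsk of -4.44 (SE 0.501). Among the genes called higher was the protease Adamts1 at 2.21 (SE 0.548), named here after its values were seen. Serpine2 at 0.07 (SE 0.488) and the metalloproteinase inhibitor Timp3 at -0.88 (SE 0.391) were not called. Of 13 genes of the TGF-beta axis, a main inducer of matrix genes, 2 were called higher and 2 lower. Tgif1, a repressor of TGF-beta responses, was at 205, 22.00 and 329 CPM in the single fibers, 84.1, 53.6 and 56.5 CPM in the 5-fiber pools, 20.5, 7.43 and 22.8 CPM in the 20-fiber pools and 3.17, 3.39 and 3.78 CPM in whole muscle. It was higher in all 9 fiber libraries, with a log2 fold change of 4.09 (SE 0.734). The other gene called higher was Skil at 1.96 (SE 0.452), and those called lower were Tgfb1 at -2.77 (SE 0.768) and Tgfbr3 at -1.51 (SE 0.421), of which Skil and Tgfbr3 were named after their values were seen. Tgfb1 was not lower in every fiber library. It was at 5.32 and 10.4 CPM in 5-fiber pools 1 and 2, against 4.10 to 6.14 CPM in whole muscle, and below whole muscle in the other fiber libraries. Smad3 at -0.39 (SE 0.4197), Tgfbr2 at -1.12 (SE 0.385) and Tgfbr1 at 0.11 (SE 0.439) were not called.

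These lists were also read in the comparisons among fibers. In single fibers against pools of 20, 11 of 33 other matrix genes tested and 7 of 18 other fibroblast markers were called lower and 0 higher, beside 27.5% of all genes tested called lower and 8.52% higher. Of 19 other matrix enzymes 10 were lower and 1 higher, the metalloproteinase inhibitor Timp1, and of 12 TGF-beta axis genes 1 was lower (Tgfbr3) and 3 were higher (Tgfb2, Skil and Tgif1), named after their values were seen. In single fibers against pools of 5 and in pools of 5 against pools of 20 edgeR called none of them, which are the comparisons with 2 and 0 calls over all genes. Markers of other cells were also read in isolated fibers against whole muscle, where 7.78% of all genes tested were called lower. Endothelial markers were called lower for 9 of 10, macrophage markers for 7 of 10 and pericyte and smooth muscle markers for 4 of 9. Adipocyte markers were called lower for 8 of 8, Schwann cell markers for 7 of 8 and satellite cell markers for 1 of 8, Chodl. Not all markers fell. The macrophage marker Cd68 was at 244, 1.49 and 266 CPM in the single fibers, against 5.73 to 7.22 CPM in whole muscle. The pericyte marker Abcc9 was at 156, 168 and 246 CPM in the single fibers, against 68.3 to 75.3 CPM in whole muscle.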

How the data were processed

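The deposited values are raw whole-number counts of reads per Ensembl gene, 1 column for each of the 12 libraries, with no normalization. Per the submitters' processing notes the authors used HISAT2, SAMtools and featureCounts on GRCm38 (mm10). Versions, strand and multi-mapping settings are not given in the sources used here. Reads shared by overlapping or near-identical genes could therefore be lost or split, which concerns Fbn1, Prelp, Pdgfra and Tnxb most. Groups and replicate numbers come from the labels, which name no batch.

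Of the 55573 rows, 55480 matched GENCODE vM21 and 93 did not. The members, the lists and the comparisons were chosen with earlier results of these data known. CPM are counts over the TMM-scaled total, and RPKM are CPM per kilobase of exon. Fits used edgeR 4.0.16 in R 4.3.3 (TMM factors, a filterByExpr filter by group, then glmQLFit and glmQLFTest) over all genes, with Benjamini-Hochberg adjusted p under 0.05. A comparison of 2 groups used their 6 libraries alone. Isolated fibers against whole muscle used all 12 and averaged the coefficients of the 3 fiber groups. The same code was also run on simulated counts with known changes. These came from a common mean profile with equal spread in all libraries. Real fiber libraries of a group differed more than those of whole muscle. The run therefore does not show how the fits perform on the fiber libraries. DESeq2 1.42.0 was an alternative, beside other scaling factors, no low-count filter, a replicate block, a fit on all libraries and leaving out each library.

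Genes were named by rule. In comparisons among fibers these were called members, up to 12 by size of change, and the 3 members with the highest CPM. Against whole muscle they were, in each role group, the members with the highest level and the smallest and largest change. In each other list they were the 3 genes highest in whole muscle and the 2 with the largest change. Totals of 4702823 to 27787120 reads set the counting precision. A gene with 0 reads was bounded with 3 counts over the group, and intervals are at the 95% level. No sample was left out, and 1 gene of the matrix enzyme list is not reported here.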

Additional observations from a re-analysis of the deposited data

How the results depend on the processing

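No member past the threshold in the main edgeR fit changed direction against whole muscle under any alternative tried. Changes of direction were not looked for in members short of the threshold. Over all members, 2066 of 2255 refitted fold changes stayed within 1 SE and 189 moved further. Scaling shifted the median log2 change of all genes in isolated fibers against whole muscle, at 0.40 with TMM, 0.56 with RLE and 0.69 with upper-quartile factors. Calls over all genes were 1650 higher and 1720 lower with TMM and 2119 higher and 1136 lower with upper-quartile factors. The counts of members against whole muscle describe the list and test nothing. In isolated fibers they ranged from 37 to 40 when 1 library was left out, beside 878 to 2999 called lower over all genes. Without the 5 libraries in which over 50% of receptor genes had a read they were 36, beside 2281 of 17201 genes lower. There the members' median log2 fold change was -5.74 in place of -3.38. Without single fiber 2 and 5-fiber pool 3 they were 40, beside 3697 of 24965 genes lower. Both of these alternatives were added after seeing the data. For pools of 5 against whole muscle the 18 calls became 38 with no low-count filter, 9 with the replicate block, and 0 to 38 when 1 library was left out. Over all genes, in the same order, 1192 of 41499, 103 of 14764, and 5 to 3788 were called lower. Leaving out 1 library gave 25 to 40 calls for single fibers and 36 to 39 for pools of 20 against whole muscle. Over all genes 1134 to 4313 and 1389 to 4317 were then called lower.

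For single fibers against pools of 5 the 0 calls became 15 with no filter, 11 with DESeq2, 10 in a fit on all 12 libraries, 17 without single fiber 2 and 5-fiber pool 3, and 0 to 6 when 1 library was left out. Over all genes, in the same order, 694 of 41786, 395 of 12700, 732 of 22110, 1927 of 13832, and 0 to 602 were called lower. For single fibers against pools of 20 the 15 calls became 0 with the replicate block and 6 to 32 when 1 library was left out. Over all genes 7 and 3012 to 9174 were then called lower. The cause was not tested. Same-numbered libraries correlated above 0.1 in 3 of 18 pairs (r from -0.24 to 0.61), and 4 of 18 correlated best with their own number, so the numbers were not taken to pair the libraries. Pools of 5 against pools of 20 gave 0 calls whichever library was left out. There the sign of 2 genes turned: Dcn was -0.12 without 5-fiber pool 2 and ranged from -0.12 to 2.15 when 1 library was left out, and Gsn was -0.12 with upper-quartile factors and ranged from -0.28 to 1.09. Members within the background density in pools of 5 were 3 with the 95th percentile in place of 5. Leaving out 1 library moved the summed level to 2.63% to 5.35% of whole muscle in single fibers, 12.6% to 20.9% in pools of 5 and 4.94% to 12.3% in pools of 20. Members with few reads, above all in 20-fiber pool 2, are limited by depth and background.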
